A study of Mus musculus with 24 samples.

Results

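The retinal pigment epithelium (RPE) is the pigmented cell layer behind the photoreceptors. RNA from RPE taken at dawn was compared with RNA from RPE taken in the early night. Both times lie in the dark phase or at its edge. Dawn is 0 h after light onset, the end of the dark phase, with 3 mice. Early night is 15 h and 16 h after light onset, with mice 1 and 2 of 15 h and mice 1, 2 and 3 of 16 h. The comparison uses 8 of the 24 libraries of the series, which sampled 8 times over the day with 3 mice each to follow autophagy and lysosomal genes through the daily cycle. Mouse 3 of 15 h was left out because its levels moved with gene length (rank correlation -0.35 across genes, against -0.12 to 0.078 in the early-night libraries used). All animals were wild type, of the strain 129S1/SvlmJ with the Leu450 form of Rpe65, and were kept under 12 h of light a day on a standard diet. The labels used here state neither age nor sex, nor whether the light was already on when the 0 h tissue was taken.

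The RPE recycles retinoids for the photoreceptors and takes up the outer segment tips that rods shed each morning. Like most tissues it carries its own circadian clock. In mammals CLOCK or NPAS2 pairs with ARNTL (BMAL1) and switches on genes with E-boxes, among them the Per and Cry genes, whose proteins shut the pair off again. ARNTL and its partner also drive Nr1d1, which represses Arntl at ROR elements where ROR factors activate it, and the PAR bZIP factors Dbp, Tef and Hlf, which act at D-boxes. Blood glucocorticoids, which in nocturnal mice are high around the onset of darkness and low near dawn, reach the same cells and act on Per1 among other targets.

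Dawn libraries held 14718683 to 16710181 counts and early-night libraries 14073440 to 17011018, within the range of the whole series (up to 17492470). No pair of the 8 libraries differed by as little as sampling noise (lowest chi-square per degree of freedom 6.51 over 28 pairs). Mitochondria-encoded transcripts took 4.95 to 6.64% of counts at dawn and 3.76 to 4.63% in early night, so the groups did not overlap. RPE markers were abundant: the summed level of 20 RPE identity genes was 47200 to 53800 CPM (counts scaled to a common library total) at dawn and 51500 to 64500 CPM in early night. Rod markers were also present, at 4390 to 6170 CPM at dawn and 1960 to 3430 CPM in early night over 22 genes, and 0 of these 22 were at 0 in all libraries. In mouse 3 of 15 h, which was left out, ribosomal protein genes took 5.75% of counts and mitochondria-encoded transcripts 0.708%. In tissue RNA, fewer cells of a type and less RNA per cell cannot be told apart.

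Of 16891 genes tested, 108 were higher at dawn than in early night and 101 were lower (edgeR's quasi-likelihood test, Benjamini-Hochberg adjusted p under 0.05 over all genes tested). These 209 genes are 1.24% of those tested, 0.639% higher and 0.598% lower, and 2318 genes had an unadjusted p under 0.05. In all 209 the dawn and early-night libraries did not overlap. Without regard to the test, 5.48% of all genes had every dawn library above every night library and 5.01% had every one below. The median log2 fold change of all genes was 0.0042, and that of called genes 0.646 in size, from -1.54 to 2.64. The higher group held clock activators with Nr1d1, photoreceptor genes, genes of B cells and monocytes, and Cyp26a1. The Period genes and Cry1, glucocorticoid targets and growth factor signalling genes were found in the lower group.

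The number of calls depended on the libraries used. With mouse 3 of 15 h put back, edgeR called 0 genes, with 691 at an unadjusted p under 0.05 and a lowest adjusted p of 0.171, while 207 of the 209 genes kept their direction. With the rod marker level of each library as a covariate 4 genes were called, all lower (Per1, Tsc22d3, Klf15 and the predicted gene Gm9824), and 209 of 209 kept their direction. The kept directions in both fits lend no support, as the 209 genes were chosen from the same 8 libraries. The rod level was 5.89 to 6.65 (median log2 CPM) at dawn and 3.07 to 5.36 in early night, without overlap in the 8 libraries, so that time and rod level cannot be told apart in this fit. In mouse 3 of 15 h, which was left out, the rod level was 5.94. The median log2 fold change of the 108 higher genes was 1.01 without and 0.605 with this covariate, and that of the 101 lower genes -0.51 and -0.484. Without mouse 1, 2 or 3 of 0 h the count was 73, 54 and 131, without mouse 2 of 15 h it was 117, and without mouse 1 of 16 h it was 74. DESeq2 called 651 genes (349 higher, 302 lower) and limma-voom 286 (183 higher, 103 lower).

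**Figure D1:**
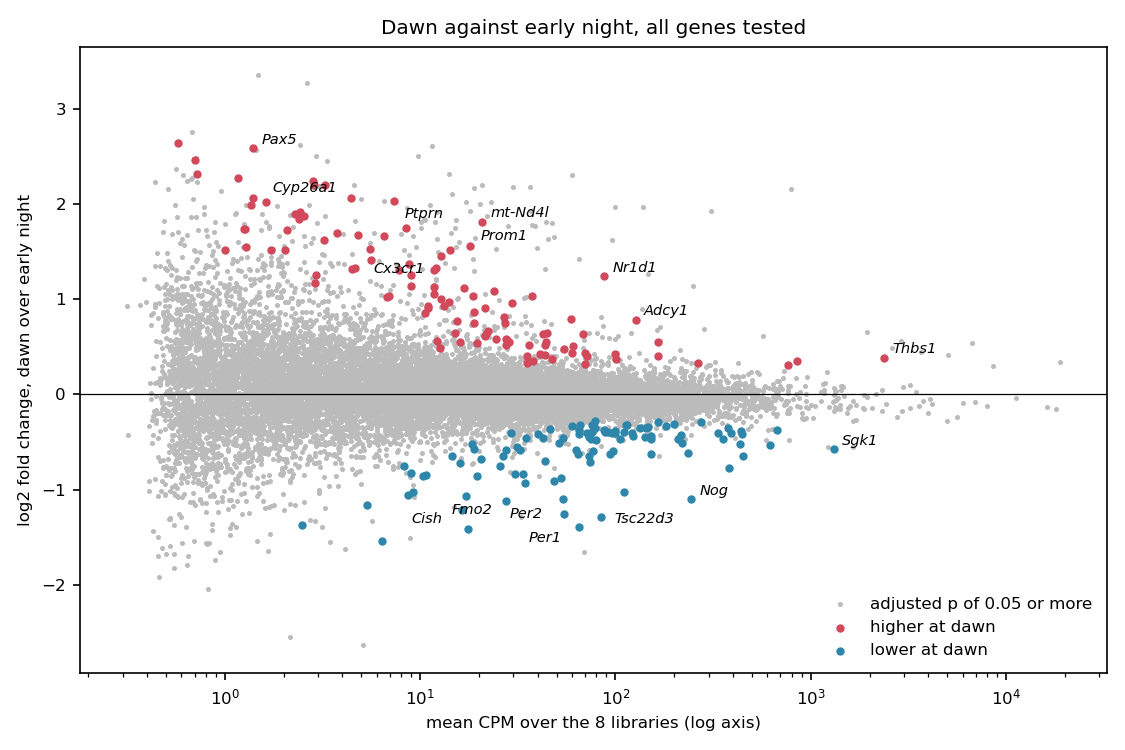
Log2 fold change of each of the 16891 genes tested (y axis, dawn over early night) against its mean CPM over the 8 libraries (x axis, log scale). The 108 genes called higher at dawn are red, the 101 called lower are blue, and Per1, Tsc22d3 and Nog stand out below the mass of grey genes.

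Of the 24 core clock genes tested, 3 were higher at dawn, 7 were lower and 14 did not pass, against 1.24% of all genes. The 3 higher genes were Nr1d1, Npas2 and Arntl. Those lower included Per1, Per2, Per3, Cry1, Tef and Hlf. The median of the 24 log2 fold changes was -0.13, from -1.40 for Per1 to 1.24 for Nr1d1. DESeq2 called 13 of the 24, limma-voom 10, and the count ran from 8 to 11 when 1 library was left out.

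The promoters of the called clock genes were read for the elements named above, because these genes went opposite ways at dawn. In RefSeq's table (GRCm38.p6, 250 bases before to 50 after each gene's start) 8 of the 10 have an entry; Per2 has none. The letters searched on both strands were CACGTG for the E-box, TTANGTAA for the D-box and TNGGTCA for the core of the ROR element. N stands for any base, so a match to TNGGTCA need not be a ROR element. These letters are found in 7.15%, 2.32% and 11% of all 32851 promoters of the table. Matches were found in Per1, Cry1, Tef, Arntl and Per3, and none in these windows of Npas2, Nr1d1 and Hlf. Only letters were matched: no binding was measured. In the sequences below, written 5′ to 3′ on the gene's strand, capitals mark the matches.

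An E-box was found in 3 of the lower genes. That of Per1 lies 166 to 161 bases before the start (chr11:69098699-69098998, + strand, the first of 2 start sites in the table), that of Cry1 60 to 55 bases before it (chr10:85185005-85185304, - strand) and that of Tef 127 to 122 bases before it (chr15:81802423-81802722, + strand, the first of 2 starts). The second start of Tef, not printed here, had an E-box 138 to 133 bases before it. A match to TNGGTCA, read on the other strand, lay 219 to 213 bases before that second start.
Per1: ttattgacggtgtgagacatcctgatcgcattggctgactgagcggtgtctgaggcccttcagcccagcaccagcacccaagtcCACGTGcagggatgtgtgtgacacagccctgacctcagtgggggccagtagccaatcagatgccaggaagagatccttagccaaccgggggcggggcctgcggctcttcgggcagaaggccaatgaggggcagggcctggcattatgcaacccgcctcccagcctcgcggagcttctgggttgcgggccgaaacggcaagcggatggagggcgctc
Cry1: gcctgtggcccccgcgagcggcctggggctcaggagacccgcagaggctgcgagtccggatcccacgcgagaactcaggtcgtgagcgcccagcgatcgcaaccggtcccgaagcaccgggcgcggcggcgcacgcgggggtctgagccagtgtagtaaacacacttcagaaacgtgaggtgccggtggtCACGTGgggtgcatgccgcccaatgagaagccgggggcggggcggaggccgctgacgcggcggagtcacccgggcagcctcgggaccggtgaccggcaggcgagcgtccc
Tef: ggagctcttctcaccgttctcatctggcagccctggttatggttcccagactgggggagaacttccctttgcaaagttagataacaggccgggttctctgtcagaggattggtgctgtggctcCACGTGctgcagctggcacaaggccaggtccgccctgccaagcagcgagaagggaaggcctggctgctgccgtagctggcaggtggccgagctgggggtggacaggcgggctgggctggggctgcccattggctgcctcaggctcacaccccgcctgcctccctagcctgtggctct
The higher gene Arntl had matches to TNGGTCA, as TTGGTCA 200 to 194 and TCGGTCA 181 to 175 bases before the start (chr7:113207215-113207514, + strand, the first of 2 starts). A further match, TAGGTCA, lies 31 to 37 bases after the second start and outside the window printed here. These are letter matches, and which of them is bound was not measured.
Arntl: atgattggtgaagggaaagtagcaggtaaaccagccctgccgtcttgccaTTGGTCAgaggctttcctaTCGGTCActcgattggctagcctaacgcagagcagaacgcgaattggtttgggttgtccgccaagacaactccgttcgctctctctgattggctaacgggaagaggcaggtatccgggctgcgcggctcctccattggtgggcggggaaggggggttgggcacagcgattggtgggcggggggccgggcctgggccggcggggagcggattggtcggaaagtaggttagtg
The lower gene Per3 had a pair of D-boxes, 205 to 198 and 158 to 151 bases before the start (chr4:151044616-151044915, - strand). A match to TNGGTCA, read on the other strand, lay 118 to 112 bases before it.
Per3: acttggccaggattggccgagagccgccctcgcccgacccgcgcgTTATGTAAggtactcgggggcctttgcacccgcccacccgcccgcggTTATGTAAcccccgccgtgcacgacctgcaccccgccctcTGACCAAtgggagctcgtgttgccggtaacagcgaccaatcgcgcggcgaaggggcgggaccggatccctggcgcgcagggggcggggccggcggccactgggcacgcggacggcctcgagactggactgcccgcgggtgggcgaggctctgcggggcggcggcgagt

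Among the repressors, Per1 (ENSMUSG00000020893, chromosome 11, 69095217 to 69109960), whose promoter holds the first E-box above, was at 33.4, 28.9 and 33.9 CPM at dawn, against 76.5 and 61.5 CPM at 15 h and 89.7, 102 and 92.5 CPM at 16 h. Every dawn library lay at about the same low level, and the lowest night library stood well above it. The log2 fold change was -1.40 (SE 0.15, adjusted p = 0.00354), a dawn level of 0.38 of that in early night. It was -1.82 with the rod level as a covariate (adjusted p = 0.0101) and -1.33 with mouse 3 of 15 h put back (adjusted p = 0.202).

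Per2 (ENSMUSG00000055866, chromosome 1, 91415982 to 91459324), a repressor of the same family, was at 23.1, 31.7 and 32.2 CPM at dawn, against 66.2 and 62.9 CPM at 15 h and 84.5, 67.9 and 65.2 CPM at 16 h. The groups did not overlap, and mouse 1 of 16 h was the highest. Its log2 fold change was -1.26 (SE 0.13, adjusted p = 0.000981). Cry1 (ENSMUSG00000020038, chromosome 10, 85131700 to 85185064), the late repressor of the loop, was at 22.5, 18 and 21 CPM at dawn, against 38.1 and 40.8 CPM at 15 h and 35, 36 and 33.9 CPM at 16 h. The gap between the groups was wider than the range within either, and the fold change was -0.84 (SE 0.10, adjusted p = 0.00242). Per3 averaged 54.2 ± 3.78 CPM at dawn and 84.8 ± 6.96 CPM in early night (SD, n = 3 and 5), with a fold change of -0.65 (SE 0.082, adjusted p = 0.00354). Cry2 did not pass at -0.14 (SE 0.074, adjusted p = 0.422), with 70.9 ± 7.29 CPM at dawn and 78.4 ± 2.99 CPM in early night.

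Rora and Rorb, ROR factors of the kind that activates Arntl, did not pass: Rora averaged 80.1 ± 2.52 CPM at dawn and 86.5 ± 6.14 CPM in early night (-0.11, adjusted p = 0.544), and Rorb 52.5 ± 6.83 CPM at dawn and 47.6 ± 4.93 CPM in early night (0.14, adjusted p = 0.605).

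On the activator side, Npas2 (ENSMUSG00000026077, chromosome 1, 39193731 to 39363236) was at 11.3, 9.33 and 10.1 CPM at dawn, against 4.38 and 4.59 CPM at 15 h and 5.04, 5.92 and 5.05 CPM at 16 h. The dawn libraries stood at 2.05 times the night level without overlap (log2 fold change 1.03, SE 0.15, adjusted p = 0.00715). Arntl (ENSMUSG00000055116, chromosome 7, 113207465 to 113314126), whose promoter is shown above, was at 32.9, 27.8 and 26.3 CPM at dawn, against 16 and 15.9 CPM at 15 h and 17.6, 20.4 and 21.1 CPM at 16 h. Again the groups did not overlap, and the fold change was 0.67 (SE 0.12, adjusted p = 0.021). This call did not hold without dawn mouse 1 (adjusted p = 0.101), dawn mouse 2 (0.0891) or mouse 1 of 16 h (0.0674). Clock, the other partner, overlapped between the groups and did not pass (0.34, SE 0.087, adjusted p = 0.0786), with 106 ± 10.2 CPM at dawn and 83.8 ± 7.93 CPM in early night.

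Nr1d1 (Rev-erb alpha; ENSMUSG00000020889, chromosome 11, 98767932 to 98775333), the repressor of Arntl, was at 121, 142 and 149 CPM at dawn, against 51.2 and 54.5 CPM at 15 h and 71.3, 55.6 and 57 CPM at 16 h. The dawn libraries all stood far above the highest night library, mouse 1 of 16 h. Its log2 fold change of 1.24 (SE 0.10, adjusted p = 0.000285) was the highest in the list, and it was 1.34 with mouse 3 of 15 h put back (adjusted p = 0.171). Of its exonic bases 8.55% are shared with Thra on the opposite strand, whose reads cannot be told apart in these libraries. Its relative Nr1d2 did not pass at -0.21 (SE 0.074, adjusted p = 0.221), with 125 ± 11.3 CPM at dawn and 144 ± 8.28 CPM in early night. All dawn libraries of Nr1d2 lay below the night libraries, as in 5.01% of all genes.

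Among the PAR bZIP factors, Tef was at 280, 280 and 304 CPM at dawn, against 407 and 407 CPM at 15 h and 419, 390 and 366 CPM at 16 h (log2 fold change -0.47, SE 0.066, adjusted p = 0.00543). The lowest night library exceeded the highest dawn library. Hlf averaged 92 ± 3.38 CPM at dawn and 121 ± 8.97 CPM in early night (-0.39, SE 0.072, adjusted p = 0.022). The call of Hlf was lost without any 1 of the 3 dawn mice (adjusted p of 0.0921, 0.0911 and 0.0589 without mouse 1, 2 and 3) or mouse 1 of 16 h (0.0623). Dbp, the third of them, spread widely at dawn, with 113, 169 and 218 CPM, against 165 and 179 CPM at 15 h and 191, 148 and 142 CPM at 16 h. Its groups overlapped (0.01, SE 0.20, adjusted p = 0.988), its sign changed between alternatives, and 18% of its exonic bases are shared with Sphk2 on the opposite strand.

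Further clock genes did not pass. Ciart, a repressor of the loop, averaged 6.73 ± 2.77 CPM at dawn and 5.53 ± 0.7 CPM in early night (0.29, adjusted p = 0.649). Bhlhe40 and Bhlhe41, which compete for E-boxes, had -0.08 and -0.20 (adjusted p = 0.689 and 0.158). All dawn libraries of Bhlhe41 lay below the night libraries, as in 5.01% of all genes. Csnk1d, a kinase that marks PER proteins for removal, had -0.25 (adjusted p = 0.138). Values for Csnk1e, Fbxl21 and Nfil3 lay between -0.14 and -0.10, with adjusted p of 0.691 or more.

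**Figure D2:**
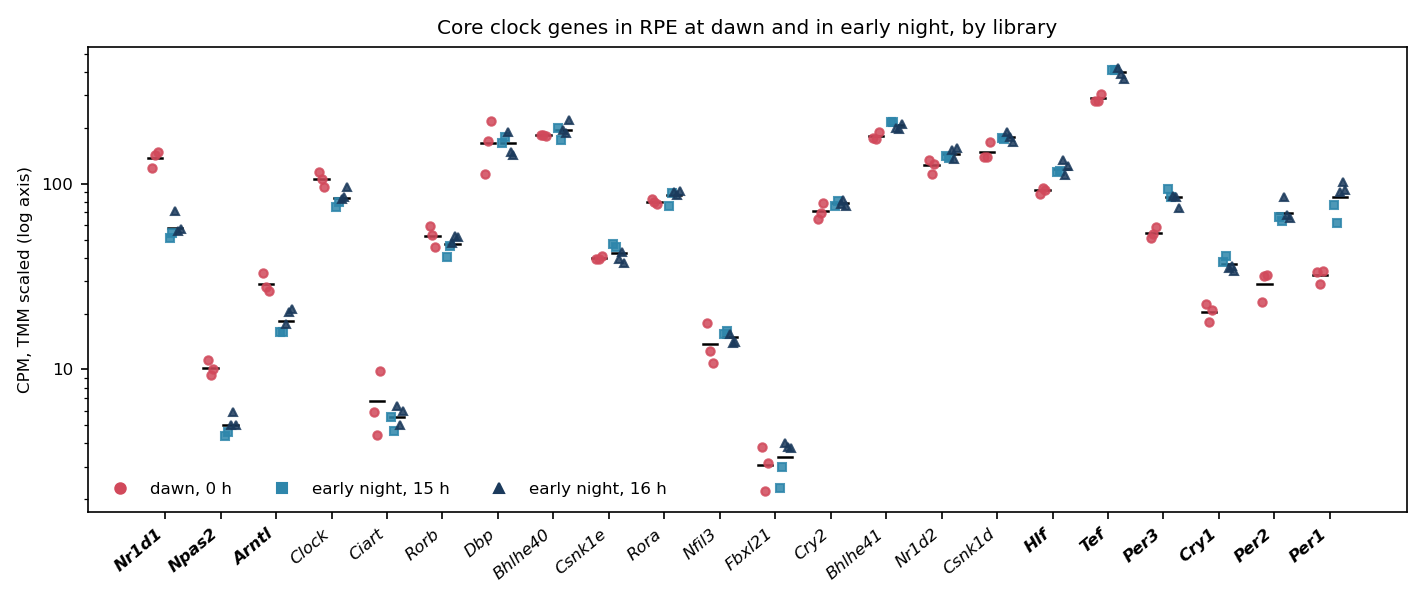
Level of 22 of the 24 core clock genes in each library (CPM with TMM scaling, log axis), ordered by log2 fold change from Nr1d1 (1.24) to Per1 (-1.40); bars are group means and bold names are called genes. Dawn points (red circles) lie left of the 15 h (blue squares) and 16 h (dark triangles) points of the same gene and apart from them for all 9 called genes shown.

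The glucocorticoid list, with 14 genes tested, holds the receptor gene Nr3c1 beside targets. Of the 14, 6 were lower at dawn, 0 were higher and 8 did not pass, against 0.598% of all genes called lower, and the median log2 fold change of the list was -0.40. Beside Per1, which is in both lists, the lower genes were Tsc22d3, Fkbp5, Sgk1, Klf9 and Ddit4. The count was 7 by DESeq2 and 5 by limma-voom, and 3 without dawn mouse 1 or without dawn mouse 2. At an unadjusted p under 0.05, 8 of the 14 were lower and 0 higher.

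Tsc22d3 (GILZ; ENSMUSG00000031431, chromosome X, 140539528 to 140600659), which carries much of the anti-inflammatory action of glucocorticoids, had the smallest p of all genes. It was at 40.4, 42.6 and 50.9 CPM at dawn, against 122 and 101 CPM at 15 h and 112, 113 and 98.2 CPM at 16 h. The highest dawn library lay far below the lowest night library, and the log2 fold change was -1.29 (SE 0.096, adjusted p = 0.000115). Its call held without each of the 8 libraries in turn and with the rod covariate (-1.41, adjusted p = 0.0111). With mouse 3 of 15 h put back the fold change was -1.39 (adjusted p = 0.171).

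Fkbp5 (ENSMUSG00000024222, chromosome 17, 28399094 to 28517527), a chaperone that dampens the glucocorticoid receptor, was at 19.4, 22 and 26.5 CPM at dawn, against 44 and 34.7 CPM at 15 h and 41.6, 39.6 and 41.9 CPM at 16 h. The groups did not overlap (-0.84, SE 0.11, adjusted p = 0.00411). Sgk1, a kinase that regulates ion channels, was among the most abundant called genes, at 985, 1010 and 1020 CPM at dawn, against 1400 and 1270 CPM at 15 h and 1600, 1500 and 1730 CPM at 16 h (-0.58, SE 0.092, adjusted p = 0.0109). Klf9, a transcription factor, averaged 53.4 CPM at dawn and 71.6 CPM in early night (-0.42, SE 0.09, adjusted p = 0.044). Ddit4 (REDD1), which restrains mTORC1, averaged 74.1 ± 3.24 CPM at dawn and 96.1 ± 8.26 CPM in early night (-0.38, SE 0.078, adjusted p = 0.039), and this call held in 2 of the 8 fits that left out 1 library (adjusted p up to 0.152).

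The receptor gene itself, Nr3c1, was at 58.9 CPM at dawn and 58.4 CPM in early night (0.01, adjusted p = 0.971). Zbtb16 (-0.83, SE 0.21, adjusted p = 0.0731) did not pass. Dusp1, Cdkn1a, Errfi1, Mt1, Mt2 and Pdk4 had values from -0.81 for Mt2 to -0.06 for Cdkn1a, with adjusted p of 0.28 or more. Immediate early genes, some of which also answer to stress at tissue collection, had 0 of 24 called by edgeR (4 at an unadjusted p under 0.05, 0 by DESeq2 and 0 by limma-voom). The fold changes of Egr1 (-0.58, SE 1.2, adjusted p = 0.889) and Fos (0.11, SE 0.65, adjusted p = 0.971) were smaller than their errors.

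Another 4 called genes outside the lists, chosen after their values were seen, were also lower at dawn without overlap. Klf15, another transcription factor known to respond to glucocorticoids, was at 55.9, 49.8 and 52.9 CPM at dawn, against 83.7 and 69 CPM at 15 h and 93.3, 96.4 and 89.7 CPM at 16 h (-0.71, SE 0.10, adjusted p = 0.00559). Cebpd averaged 34.3 ± 5.68 CPM at dawn and 63.2 ± 6.96 CPM in early night (-0.88, SE 0.12, adjusted p = 0.00402). Usp2, a deubiquitinase with a daily rhythm in many tissues, averaged 22.1 ± 0.298 CPM at dawn and 42.1 ± 7.42 CPM in early night (-0.93, SE 0.14, adjusted p = 0.00972). Wee1, a cell cycle kinase known as a clock target in mouse liver, averaged 13.1 ± 0.74 CPM at dawn and 23.6 ± 2.1 CPM in early night (-0.85, SE 0.11, adjusted p = 0.00354).

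Signalling genes of the STAT5, BMP, Wnt and FGF pathways gave further lower calls. In the STAT5 feedback list 2 of 10 were lower and 0 higher, against 0.598% of all genes called lower, with a median of -0.09. Cish (ENSMUSG00000032578, chromosome 9, 107296026 to 107302784), an inhibitor of cytokine receptors that STAT5 switches on, was at 6.1, 11.8 and 9.05 CPM at dawn, against 15.6 and 21 CPM at 15 h and 20.3, 24.3 and 22.9 CPM at 16 h. All dawn libraries were lower (-1.22, SE 0.20, adjusted p = 0.0175). The call was lost without dawn mouse 3 (adjusted p = 0.062) or mouse 1 of 16 h (0.0504), and 11.5% of the exonic bases are shared with predicted genes on the opposite strand. Pim3, a kinase of the same pathway, averaged 101 ± 10.3 CPM at dawn and 137 ± 8.08 CPM in early night (-0.44, SE 0.078, adjusted p = 0.0195), without a call when mouse 1 (0.0776) or mouse 2 (0.112) from 0 h, or mouse 1 from 16 h (0.0593), was left out. Bcl6 (-0.47, SE 0.11, adjusted p = 0.0572) missed the threshold, and Socs1, Socs2 and Socs3 had 0.29, -0.03 and -0.14 (adjusted p of 0.724 or more).

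Of 34 BMP, Wnt and FGF genes tested, 3 were lower and 0 higher, against 0.598% of all genes called lower, with a median of -0.14. Nog (noggin; ENSMUSG00000048616, chromosome 11, 89300638 to 89302332), a secreted antagonist that binds BMPs, was at 141, 126 and 159 CPM at dawn, against 261 and 288 CPM at 15 h and 344, 289 and 337 CPM at 16 h. The lowest night library lay far above the highest dawn library (-1.10, SE 0.10, adjusted p = 0.000444). The genes of its ligands moved less: Bmp4 had -0.43 (SE 0.11, adjusted p = 0.0994), with 200 CPM at dawn and 269 CPM in early night, and Bmp2, Bmp6 and Bmp7 had -0.11, -0.08 and -0.08 (adjusted p of 0.529 or more). Targets of BMP signalling were not called either, with 0.17 for Id1, 0.32 for Id2 and 0.43 for Id3 (adjusted p of 0.25 or more).

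Etv4, an ETS factor that FGF signalling switches on, was at 3.42, 2.7 and 2.9 CPM at dawn, against 5.44 and 8.58 CPM at 15 h and 7.56, 6.97 and 5.19 CPM at 16 h. The groups did not overlap (-1.16, SE 0.22, adjusted p = 0.022), but the call was lost without any 1 dawn mouse (adjusted p of 0.0542, 0.112 and 0.0661 without mouse 1, 2 and 3), mouse 2 of 15 h (0.0529) or mouse 1 of 16 h (0.0674). Other targets of the same pathway were negative and did not pass, with -0.30 for Spry4, -0.27 for Spry2, -0.25 for Dusp6 and -0.24 for Etv5 (adjusted p from 0.106 to 0.25). Sfrp5, a secreted Wnt inhibitor, averaged 169 ± 16.3 CPM at dawn and 234 ± 13.2 CPM in early night (-0.47, SE 0.075, adjusted p = 0.0113; 0.0502 without dawn mouse 1). Wnt5b, a Wnt ligand outside the list, had 5.16 ± 0.587 CPM at dawn and 10.7 ± 1.21 CPM in early night (-1.06, SE 0.15, adjusted p = 0.00623).

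Fmo2, a flavin monooxygenase, was at 16.2, 16.4 and 14.8 CPM at dawn, against 36.7 and 38.1 CPM at 15 h and 30.5, 35.4 and 31.7 CPM at 16 h (-1.12, SE 0.10, adjusted p = 0.000304). Both groups were tight and far apart. Il34, a ligand of the macrophage receptor CSF1R, averaged 5.58 ± 0.727 CPM at dawn and 11.3 ± 1.82 CPM in early night (-1.03, SE 0.17, adjusted p = 0.0143; 0.0531 and 0.0525 without dawn mouse 1 and dawn mouse 3). Poln, a DNA polymerase, averaged 10.2 ± 0.982 CPM at dawn and 21.5 ± 4.6 CPM in early night (-1.07, SE 0.17, adjusted p = 0.0106; 0.0644 without dawn mouse 2). Cys1, a protein of the ciliary membrane, averaged 8.56 ± 1.67 CPM at dawn and 22.9 ± 6.66 CPM in early night (-1.42, SE 0.26, adjusted p = 0.0367), a call that held in 3 of the 8 fits without 1 library (adjusted p up to 0.145). Rbm3, a cold-induced RNA-binding protein, and Herpud1, a protein of endoplasmic reticulum quality control, had -0.40 (SE 0.073, adjusted p = 0.021) and -0.28 (SE 0.062, adjusted p = 0.0489). Their calls held in 3 and 0 of the 8 such fits.

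Photoreceptor RNA stood higher in the dawn libraries than in the night libraries used. Rods carry the phototransduction proteins of dim light vision, and their outer segments reach into the RPE. Of 22 rod markers 21 were positive and in 19 every dawn library stood above every night library, against 5.48% of all genes, with a median log2 fold change of 1.8. Their spread was wide: edgeR called 1 (Rom1), with 19 at an unadjusted p under 0.05, while DESeq2 called 14, limma-voom 18 and edgeR without mouse 2 of 16 h 8. Of all 16891 genes, edgeR called 0.639% higher, DESeq2 called 349 higher and limma-voom 183, and 2318 had an unadjusted p under 0.05. All 14 genes of the photoreceptor matrix and of photoreceptors in general had dawn libraries above the night libraries used, with a median of 1.6. Of these edgeR called 0, with 14 at an unadjusted p under 0.05, DESeq2 12 and limma-voom 12. Mouse 3 of 15 h, which was left out, had a rod level of 5.94, within the dawn range of 5.89 to 6.65. With that mouse included, the highest 15 h sums were 1950 CPM for the matrix list and 122 CPM for cones. The dawn sums, scaled over the same 24 libraries, were 1790 to 2100 CPM and 101 to 134 CPM.

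Gnat1, rod transducin, averaged 570 CPM at dawn and 150 CPM in early night (1.93, SE 0.51, adjusted p = 0.167). Nr2e3, a rod transcription factor, averaged 24.3 CPM at dawn and 3.93 CPM in early night (2.61, SE 0.57, adjusted p = 0.0988). Rom1, a disc rim protein, was at 221, 182 and 186 CPM at dawn, against 150 and 135 CPM at 15 h and 146, 161 and 150 CPM at 16 h. The groups did not overlap (0.40, SE 0.078, adjusted p = 0.0263), but leaving out dawn mouse 1 (adjusted p = 0.105), dawn mouse 2 (0.0732), mouse 2 of 15 h (0.0642) or mouse 1 of 16 h (0.0925) ended the call. The fold change was -0.06 with mouse 3 of 15 h put back (adjusted p = 0.981).

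The sum of the rod list was 6170, 4430 and 4390 CPM in the dawn mice, against 2410 and 1960 CPM at 15 h and 2610, 3430 and 2180 CPM at 16 h. Mouse 1 of 0 h held the most and mouse 2 of 15 h the least. Cone markers behaved less evenly: 10 of 11 were positive, 3 did not overlap (5.48% of all genes), 1 was called (0.639% of all genes called higher), and the median was 1.1. Gnb3, the transducin beta subunit of cones, was at 14, 14.6 and 16.9 CPM at dawn, against 3.69 and 3.46 CPM at 15 h and 4.61, 8.07 and 2.63 CPM at 16 h (1.74, SE 0.29, adjusted p = 0.0198). This was the 1 cone gene called, and it held in 3 of 8 fits without 1 library (adjusted p up to 0.0792), while Gnat2 (0.10) and Pde6c (0.02) differed little. Inner retina markers had 0 of 17 called by edgeR (4 at an unadjusted p under 0.05, 1 by DESeq2, 0 by limma-voom) and a median of 0.05.

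Several of the largest rises outside the marker lists were in genes known from photoreceptors. Prom1, a membrane protein of the disc edge, averaged 30.8 ± 6.35 CPM at dawn and 10.4 ± 3.99 CPM in early night (1.56, SE 0.29, adjusted p = 0.0464). Mak, a kinase of the photoreceptor cilium, averaged 14.2 ± 2.2 CPM at dawn and 5.45 ± 2.25 CPM in early night (1.37, SE 0.26, adjusted p = 0.0334), and Mpp4, a scaffold of the photoreceptor synapse, 19.3 ± 3.76 CPM at dawn and 7.64 ± 2.86 CPM in early night (1.33, SE 0.26, adjusted p = 0.0419). These calls held in 1, 1 and 2 of the 8 fits without 1 library (adjusted p up to 0.13, 0.113 and 0.13), and with the rod covariate the fold changes were 0.49, 0.34 and 0.26. Mpp4 shares 13.8% of its exonic bases with other genes. Wdr17, a WD repeat protein, was called in all 8 such fits, at 14.5, 9.6 and 10.3 CPM at dawn, against 3.38 and 3.39 CPM at 15 h and 3.38, 5.4 and 2.41 CPM at 16 h (1.67, SE 0.23, adjusted p = 0.00459; 0.88 with the rod covariate).

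Ptprn (ENSMUSG00000026204, chromosome 1, 75247027 to 75264502), a receptor-like protein of secretory granules, was at 13, 14.7 and 14.4 CPM at dawn, against 3.44 and 1.73 CPM at 15 h and 2.77, 6.1 and 3 CPM at 16 h. The dawn libraries were close together and the night libraries spread below them (2.03, SE 0.29, adjusted p = 0.00948), and the fold change was 1.03 with the rod covariate (adjusted p = 0.947). Rod marker RNA was higher in the same libraries; beyond these covariate values its part in the photoreceptor-related results was not tested.

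Of the mitochondria-encoded transcripts 13 of 13 were positive and 7 did not overlap, against 5.48% of all genes with dawn above night, and the median was 0.56. By edgeR 1 was called, against 0.639% of all genes called higher (8 at an unadjusted p under 0.05, 6 by DESeq2). This was mt-Nd4l, which encodes a subunit of complex I, at 53.9, 27.9 and 31.3 CPM at dawn, against 13.6 and 9.31 CPM at 15 h and 10.6, 8.83 and 11.2 CPM at 16 h (1.82, SE 0.22, adjusted p = 0.00495). Abundant members differed less, as mt-Co1 with 21900 CPM at dawn and 17200 CPM in early night (0.34, SE 0.10, adjusted p = 0.137). Among nuclear genes of oxidative phosphorylation, edgeR, DESeq2 and limma-voom each called 0 of 55, with 3 at an unadjusted p under 0.05 and a median of -0.06. The share of mitochondria-encoded reads also moved with the group, as given at the start, and its part in these values was not tested.

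**Figure D3:**
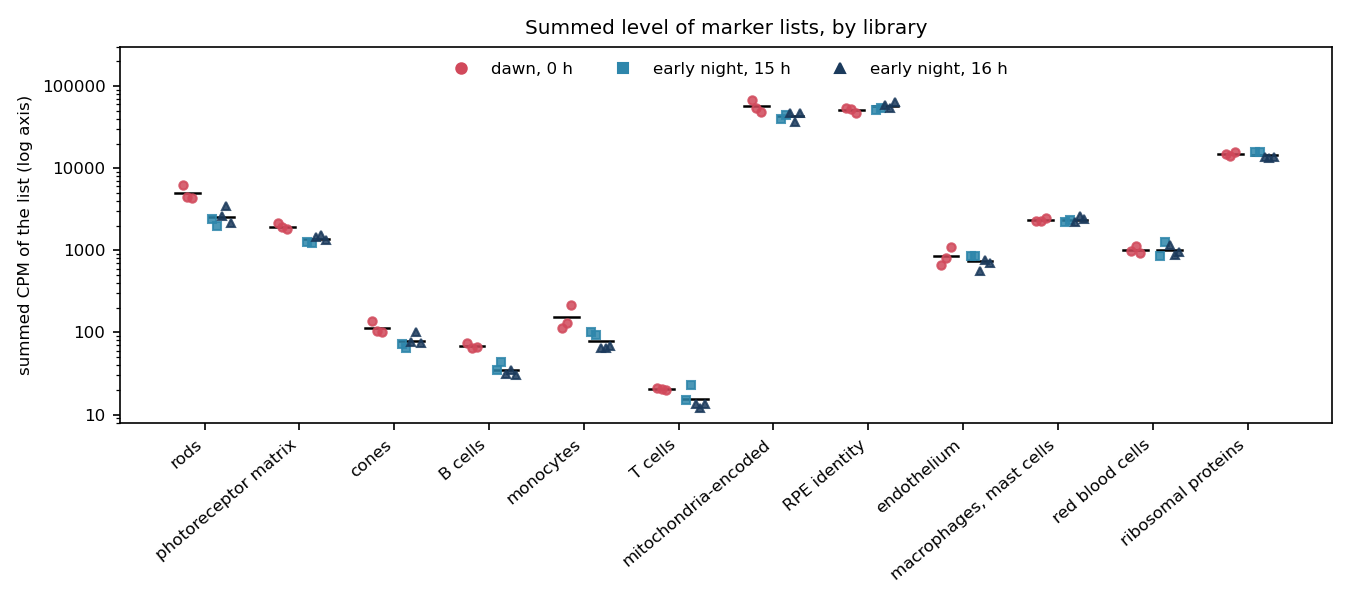
Summed CPM of 12 marker lists in each library (log axis), with dawn (red circles) left of 15 h (blue squares) and 16 h (dark triangles); bars are group means. Rod, B cell and mitochondria-encoded sums at dawn (rods 4390 to 6170 CPM) lie above all night libraries shown (rods 1960 to 3430 CPM), while RPE identity and ribosomal protein sums overlap.

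Several genes of B cells and monocytes were also called higher at dawn. Lists of B cell, T cell, monocyte and neutrophil genes were written after the called genes had been seen, so their counts describe and do not test. Of 16 B cell genes, 16 were positive, 13 did not overlap and 8 were called, with a median of 1.8. Over all genes 5.48% had dawn libraries above night libraries and 0.639% were called higher. Members low at night passed the count filter mainly through their dawn libraries, as Blk with 1.45 CPM at dawn and 0.257 CPM in early night. For such members a higher dawn level was partly set in advance by the filter, so these counts lend no support. Their summed level was 75, 64.3 and 66 CPM at dawn, against 35 and 43.3 CPM at 15 h and 31.6, 35.1 and 30.2 CPM at 16 h. Pax5, the factor that fixes B cell identity, was at 3.11, 3.04 and 2.66 CPM at dawn, against 0.313 and 0.865 CPM at 15 h and 0.43, 0.639 and 0.146 CPM at 16 h (2.59, SE 0.40, adjusted p = 0.00948). Ighm, the heavy chain of IgM, averaged 17.5 CPM at dawn and 8.41 CPM in early night (1.05, SE 0.19, adjusted p = 0.0196). With Ighm, Ebf1 and Cd22 had the highest night levels of the list, but both overlapped between the groups and did not pass. Ebf1 averaged 10.6 CPM at dawn and 9.89 CPM in early night (0.10, SE 0.14, adjusted p = 0.819). Cd22 averaged 10 CPM at dawn and 8.14 CPM in early night (0.30, SE 0.14, adjusted p = 0.386).

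Monocyte genes showed a like pattern, with 13 of 13 positive, 8 without overlap (5.48% of all genes), 7 called (0.639% of all genes) and a median of 1.3. Cx3cr1, the fractalkine receptor, was at 19.7, 19.5 and 23.9 CPM at dawn, against 10.9 and 10.8 CPM at 15 h and 6.09, 5.34 and 5.34 CPM at 16 h (1.45, SE 0.25, adjusted p = 0.0262). The 16 h libraries lay below those of 15 h, a difference that did not pass (-0.96, adjusted p = 0.0726). Ccr2, the receptor that recruits inflammatory monocytes, averaged 12.5 ± 3.55 CPM at dawn and 5.04 ± 1.32 CPM in early night (1.31, SE 0.23, adjusted p = 0.0181). Itgal, a leukocyte integrin, averaged 24 ± 11.9 CPM at dawn and 8.35 ± 1.57 CPM in early night (1.52, SE 0.28, adjusted p = 0.0435), and Spn, a leukocyte sialoprotein, 9.35 ± 4.62 CPM at dawn and 3.26 ± 0.881 CPM in early night (1.52, SE 0.29, adjusted p = 0.0269). Mouse 3 of 0 h was the highest library for both, at 37.4 and 14.7 CPM. Calls of Cx3cr1, Ccr2, Itgal and Spn held in 4, 6, 2 and 3 of the 8 fits without 1 library (adjusted p up to 0.0915, 0.0649, 0.116 and 0.0976).

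T cell genes had 0 of 8 called by edgeR (1 at an unadjusted p under 0.05) and a median of 0.33, with sums of 19.8 to 21.3 CPM at dawn and 11.9 to 22.6 CPM in early night. Neutrophil genes had 0 of 7 called (0 at an unadjusted p under 0.05) and sums of 24.8 to 40.5 CPM at dawn and 14.6 to 85.3 CPM in early night. Red cell genes, mainly globins, had 0 of 5 called (0 at an unadjusted p under 0.05, 0 by DESeq2 and 0 by limma-voom), with sums of 925 to 1130 CPM at dawn and 856 to 1260 CPM in early night. Of 18 markers of resident macrophages and mast cells 2 were higher (Cx3cr1, which is in this list too, and Kit) and 0 were lower, against 0.639% of all genes called higher. Their sums overlapped, at 2270 to 2470 CPM at dawn and 2220 to 2590 CPM in early night. Endothelial markers had 15 of 15 positive and a median of 0.24, with 0 called by edgeR, DESeq2 or limma-voom and 1 at an unadjusted p under 0.05. Whether blood in the tissue had a part in the B cell and monocyte values was not tested.

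Cyp26a1 (ENSMUSG00000024987, chromosome 19, 37697808 to 37701528), the enzyme that clears retinoic acid, was at 8.72, 11.4 and 5.32 CPM at dawn, against 2.19 and 2.53 CPM at 15 h and 2.83, 1.51 and 1.02 CPM at 16 h. The lowest dawn library was above the highest night library, and dawn stood at 4.17 times the night level (2.06, SE 0.31, adjusted p = 0.00919; 0.0659 without dawn mouse 2). The rest of the visual cycle list was not called: Rpe65, the isomerase, averaged 4390 ± 434 CPM at dawn and 5320 ± 724 CPM in early night (-0.28, SE 0.11, adjusted p = 0.271), and Lrat, which esterifies retinol, 1270 CPM at dawn and 1860 CPM in early night (-0.55, SE 0.13, adjusted p = 0.0732). Rlbp1, Rdh5 and Rgr differed by -0.14, -0.10 and -0.04 (adjusted p of 0.452 or more).

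Adcy1 (ENSMUSG00000020431, chromosome 11, 7063489 to 7178506), the calcium-stimulated adenylyl cyclase that produces cyclic AMP, was at 177, 175 and 167 CPM at dawn, against 84.1 and 86.3 CPM at 15 h and 110, 109 and 112 CPM at 16 h. It was high and even at dawn and lowest at 15 h (0.79, SE 0.098, adjusted p = 0.00354), and was called in all 8 fits without 1 library. Of the 20 genes of the cyclic AMP list it was the 1 called, against 1.24% of all genes, with Adcy5 next at 0.65 (SE 0.15, adjusted p = 0.0534). Slco4a1, an organic anion transporter, averaged 9.25 ± 2.37 CPM at dawn and 3.46 ± 1.32 CPM in early night (1.41, SE 0.27, adjusted p = 0.0262), a call that held in 3 of the 8 fits. With the rod covariate the fold change of Slco4a1 was 0.44, and the part of rod RNA in it was not tested further.

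Further rises were found for Lox, the collagen crosslinking enzyme (0.86, SE 0.16, adjusted p = 0.0262), for Vtn, the adhesive plasma and matrix protein vitronectin (0.48, SE 0.089, adjusted p = 0.022), for the receptor kinase Kit (0.41, SE 0.071, adjusted p = 0.0181) and for Acadm, an enzyme of fatty acid oxidation (0.32, SE 0.059, adjusted p = 0.0227). Acadm was tight in both groups, with 78.6, 81.8 and 77.6 CPM at dawn, against 64.7 and 65.3 CPM at 15 h and 62.1, 61.9 and 64.3 CPM at 16 h. Each of these 4 calls held in 4 of the 8 fits without 1 library, with adjusted p up to 0.124, 0.0919, 0.0882 and 0.141. In the same order, the fold changes with the rod covariate were 0.97, 0.26, 0.30 and 0.38. With mouse 3 of 15 h put back they were 1.02, 0.12, 0.55 and 0.25 (adjusted p of 0.711 or more). Lox was the 1 called of 25 collagen and lysyl oxidase genes, Vtn of 19 complement genes and Acadm of 27 fatty acid oxidation genes. Of all genes 0.639% were called higher. Medians of these lists were 0.12, 0.04 and -0.01. In the last, 16 of 27 genes were negative, and 6 had an unadjusted p under 0.05, of which 3 were higher. Plat, the tissue plasminogen activator, was chosen after its values were seen and averaged 54.8 ± 12.2 CPM at dawn and 37.4 ± 1.88 CPM in early night (0.55, SE 0.11, adjusted p = 0.0383). Thbs1, a matrix protein also chosen so, was abundant and rose too, with 2790 ± 279 CPM at dawn and 2130 ± 121 CPM in early night (0.39, SE 0.078, adjusted p = 0.0344).

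Genes of autophagy and lysosomes, the subject of the series, gave few calls between dawn and early night, and edgeR called 0 of the 5 genes named here. Optn (optineurin, a receptor of selective autophagy; ENSMUSG00000026672, chromosome 2, 5020642 to 5064051) was at 109, 125 and 110 CPM at dawn, against 109 and 103 CPM at 15 h and 112, 105 and 116 CPM at 16 h. The groups overlapped (0.07, SE 0.069, adjusted p = 0.707). Tfeb, the master factor of lysosomal genes, averaged 32.3 ± 4.09 CPM at dawn and 37.7 ± 4.71 CPM in early night (-0.22, SE 0.11, adjusted p = 0.418). Sqstm1 (p62) averaged 468 ± 5.48 CPM at dawn and 511 ± 30.4 CPM in early night (-0.13, SE 0.065, adjusted p = 0.422), the protease gene Ctsd 2710 ± 216 CPM at dawn and 3060 ± 104 CPM in early night (-0.18, SE 0.071, adjusted p = 0.284) and the uptake receptor gene Mertk 193 ± 9.65 CPM at dawn and 202 ± 16.8 CPM in early night (-0.06, SE 0.076, adjusted p = 0.783). For Sqstm1 and Ctsd every dawn library lay below every night library, as in 5.01% of all genes. Exonic bases shared with other genes were 17.3% for Sqstm1 and 34.4% for Ctsd.

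By list, edgeR called 0 of 40 genes of autophagy machinery, 0 of 22 selective receptors, 0 of 50 lysosomal hydrolases and 0 of 41 genes of the lysosomal membrane and V-ATPase, the proton pump that acidifies lysosomes. Their medians were -0.04, -0.07, -0.04 and -0.01. Negative fold changes were found in 28, 17, 31 and 21 of their genes, while 51% of all genes tested were positive. At an unadjusted p under 0.05 there were 5, 3, 5 and 6 genes, DESeq2 called 2, 0, 1 and 2, and limma-voom called 0 in each. Of the genes below the unadjusted threshold, 0, 0, 2 and 0 were higher at dawn and the rest lower. Over all 16891 genes tested, 2318 were below that threshold. With no filter on low counts edgeR called 1, 0, 0 and 2 in these lists. Outer segment uptake genes (25 tested), RPE identity genes (20), melanin genes (22) and epithelial transport genes (24) also had 0 calls by edgeR, with 7, 4, 3 and 3 at an unadjusted p under 0.05. In these DESeq2 called 3, 3, 1 and 0 and limma-voom 2, 0, 0 and 0. RPE identity genes leaned to lower values too, with 18 of 20 negative and a median of -0.13. Cytosolic ribosomal proteins had 0 of 75 called (11 at an unadjusted p under 0.05, 2 by DESeq2, 0 by limma-voom) and a median of 0.04. Of 34 genes of the MiT/TFE factors and mTORC1, which govern lysosome formation, 1 was lower (Ddit4), against 0.598% of all genes called lower, and the median was -0.05. Cholesterol genes (23), glycolysis genes (24), NRF2 targets (22), iron genes (16) and interferon response genes (23) had 0 calls by edgeR, with 3, 6, 7, 0 and 1 at an unadjusted p under 0.05. By DESeq2 2 glycolysis genes and 0 of the others were called, and by limma-voom 0.

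**Figure D4:**
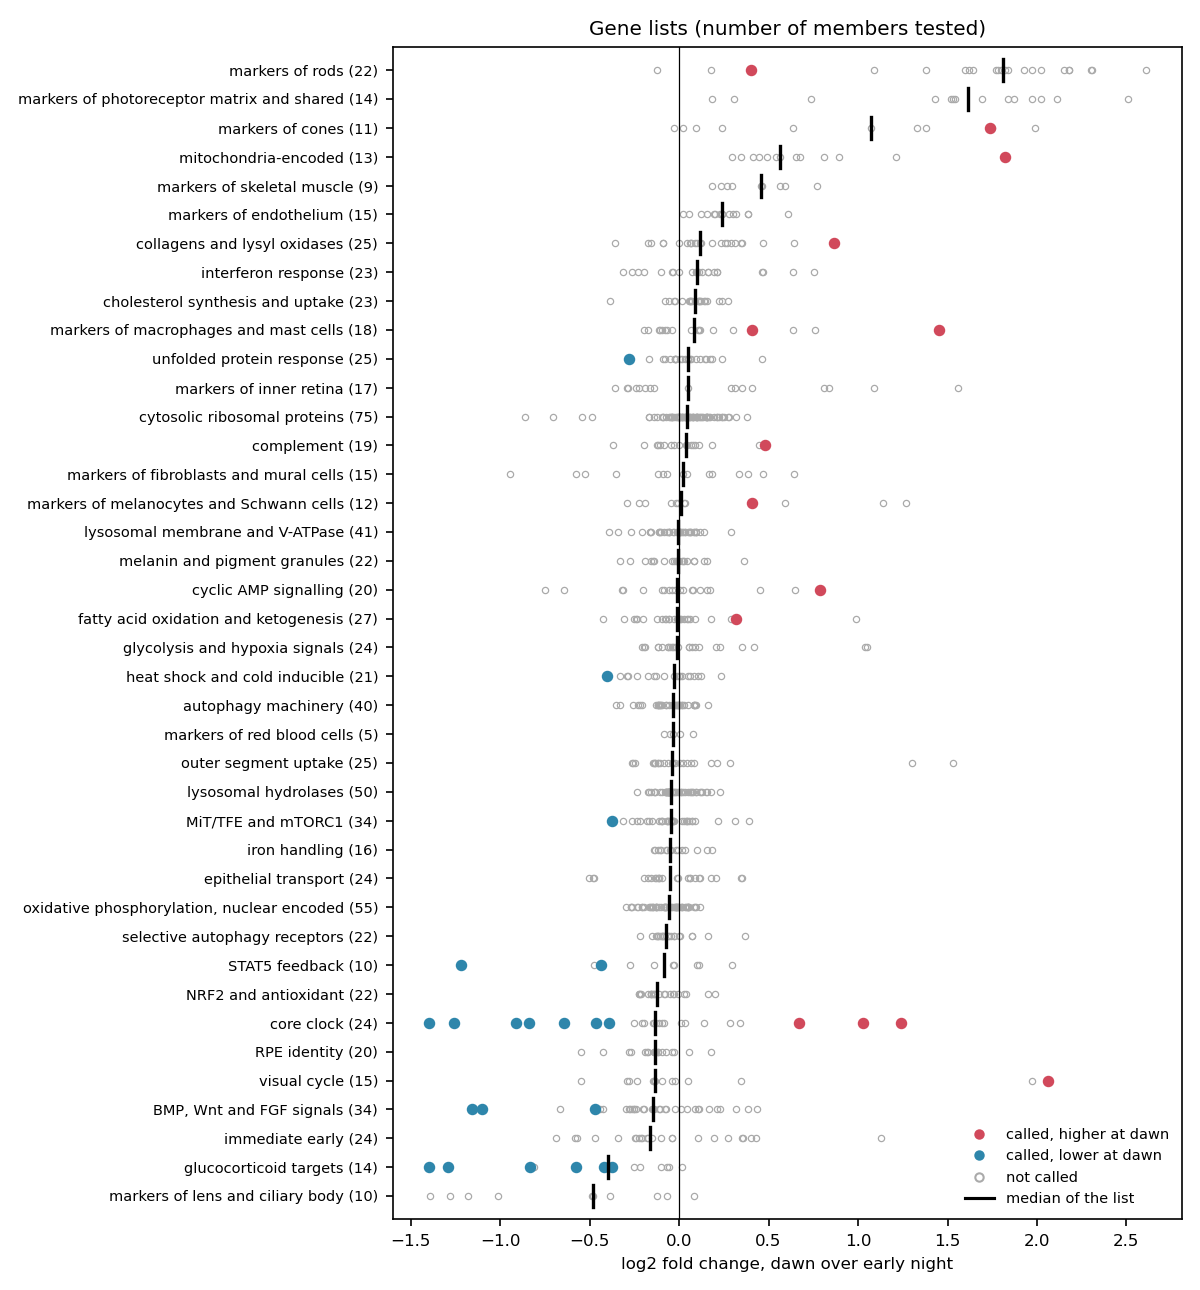
Log2 fold change, dawn over early night, of each member tested in 40 gene lists, sorted by the median of the list (black bar). Filled points are called genes (red higher, blue lower): they concentrate in the core clock (3 higher, 7 lower) and glucocorticoid (6 lower) lists, and the rod list has the highest median (1.8) with 1 called member.

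Each night time was also set against the dawn libraries, which both comparisons share. At 16 h, 256 genes were called (105 higher and 151 lower at dawn, 1.52% of those tested, 0.622% higher and 0.894% lower), and at 15 h, with 2 mice, 177 (82 higher, 95 lower, 1.05%). Values for Per1 were -1.56 for dawn against 16 h (adjusted p = 1.48e-05) and -1.11 against 15 h (0.000439), and for Nr1d1 1.16 (0.00017) and 1.38 (0.000266). Tsc22d3 had -1.27 (6.05e-05) and -1.32 (0.000195), and Nog -1.19 (5.86e-05) and -0.95 (0.0011). Rpe65 was lower at dawn than at 16 h (-0.40, adjusted p = 0.0357), with -0.08 against 15 h (adjusted p = 0.748), and its difference between 16 h and 15 h did not pass (0.32, adjusted p = 0.254).

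Between 16 h and 15 h themselves, 1 gene was called (0.00592% of those tested), with 1874 at an unadjusted p under 0.05. It was Arhgef3, a guanine nucleotide exchange factor, at 235, 206 and 245 CPM at 16 h, against 145 and 132 CPM at 15 h and 124, 124 and 120 CPM at dawn (0.72 for 16 h over 15 h, SE 0.087, adjusted p = 0.0253). DESeq2 called 192 genes in this comparison and limma-voom 0. Leaving out mouse 2 of 15 h gave 41 genes and leaving out dawn mouse 3 or dawn mouse 1 gave 16 and 9.

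Levels at the other times of day place dawn within the cycle for these genes, over 22 libraries without mouse 3 of 15 h and mouse 3 of 6 h. Per1 had its lowest mean at 0 h (32 CPM) and stood at 115 CPM at 1 h, 49 CPM at 3 h and 133 CPM at 9 h, against 69.8 CPM at 15 h and 94.7 CPM at 16 h. Tsc22d3 was at 44.6 CPM at 0 h, 86.4 CPM at 1 h, 45.2 CPM at 3 h and 88.6 CPM at 9 h, with its highest means at 15 h (113 CPM) and 16 h (108 CPM). Cish likewise had 8.96, 29.5 and 9.09 CPM at 0 h, 1 h and 3 h. In each of these 3 genes the mean at 1 h lay above those at 0 h and 3 h.

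Nr1d1 was at 137 CPM at 0 h, 140 CPM at 1 h and 196 CPM at 3 h, with its lowest means at 15 h (53.5 CPM) and 16 h (61.3 CPM). Arntl had its highest mean at 0 h (28.9 CPM) and its lowest at 9 h (6.95 CPM), and was at 16.1 and 19.7 CPM at 15 h and 16 h. Cry1 stayed between 19.4 and 25.4 CPM from 0 h to 9 h and was highest at 15 h (39.9 CPM). Cyp26a1 was at 8.46 CPM at 0 h, 17 CPM at 3 h and 1.79 CPM at 16 h, the lowest of all times. Rod marker sums were highest at 0 h too, with 4370 to 6080 CPM, against 1850 to 4200 CPM over all libraries of the other times, mouse 3 of 15 h and of 6 h included.

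**Figure D5:**
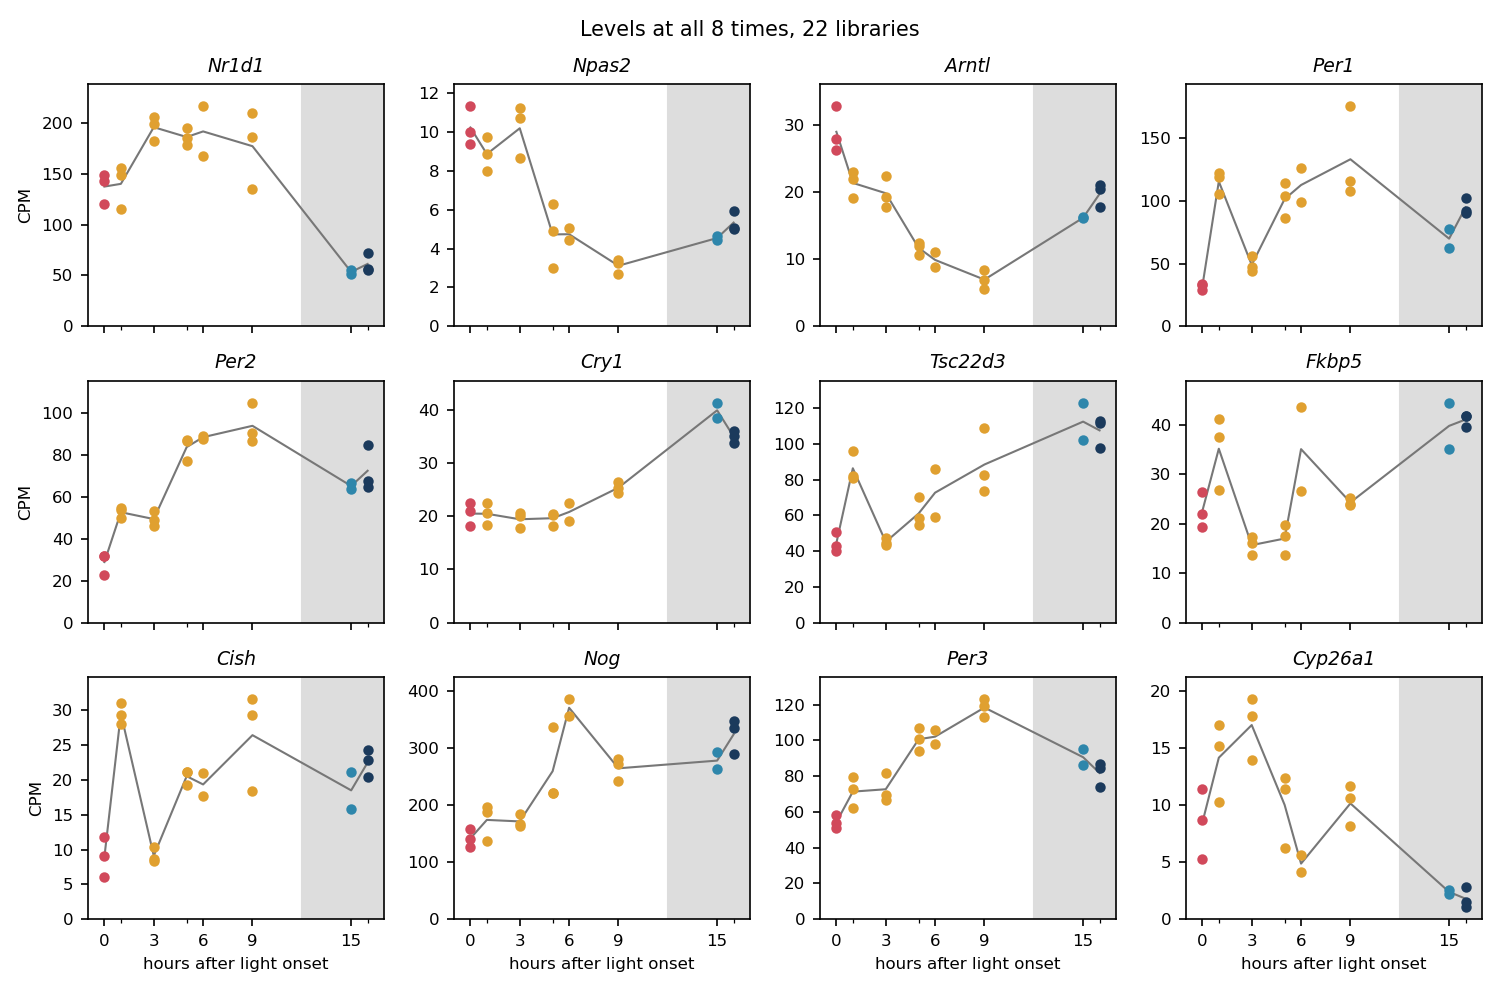
CPM of 12 genes in each of 22 libraries against hours after light onset, with dawn red, light-phase times amber, 15 h blue, 16 h dark blue and the dark phase shaded; the grey line joins the means. Per1 is lowest at 0 h (mean 32 CPM), Nr1d1 lowest at 15 h (53.5 CPM) and Cyp26a1 lowest at 16 h (1.79 CPM).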

How the data were processed

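Gene counts from RNA-seq of mouse RPE RNA were used as deposited by the authors: whole-number counts per gene with no normalization, for 54532 genes in one table of all 24 libraries. STAR, HTSeq and the mm10 build are named in the submitters' processing notes; no versions are stated there. The libraries were made with the NEBNext Ultra RNA kit per the labels' protocols, which does not mark strand, so reads of overlapping genes on either strand cannot be told apart. Exonic overlap was computed from GENCODE vM21 (54495 of 54532 identifiers found): 24 of the 65 genes the naming rule gives share exonic bases with another gene, 6 of them over 10%.

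Groups came from the sample labels, and the series' design text gives the replicates of a time as mice. Counts were filtered with filterByExpr (minimum count 10), scaled by TMM and tested with edgeR 4.0.16 in R 4.3.3 (quasi-likelihood, robust), on the 8 libraries, with Benjamini-Hochberg adjustment over all 16891 genes and a threshold of 0.05. Fold changes are log2, dawn over early night, and standard errors were derived from the fold change and its F statistic. Alternatives used DESeq2 1.42.0, limma 3.58.1 (voom), other library sets, no filter, a replicate block, a rod level covariate and gene length offsets. The fit was tested on simulated counts. Totals of 14073440 counts or more per library limit precision mainly for genes of a few CPM.

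Genes were named by rule: the 12 called genes with the largest change in each direction, with a mean of at least 5 CPM and groups that do not overlap (predicted genes passed over), all clock genes, up to 3 called members of each other list, and Optn, Tfeb, Sqstm1, Mertk, Rpe65 and Ctsd. Sgk1, Klf9 and uncalled list members were named beside these after their values were seen. Members, lists and rule were chosen with earlier results of these data known. Some genes that the rule names are not reported here. Promoter sequences are from RefSeq (GRCm38.p6). Levels over the day are CPM scaled over 22 libraries and differ slightly from those scaled over 8.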

Additional observations from a re-analysis of the deposited data

Results flagged for a closer look

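In 6 of 65 genes screened, 1 of the 5 early-night libraries lay apart from the other 4 by more than Dixon's criterion allows, and chance gives about 1 in 20 such groups. The library was mouse 1 of 16 h for Per2 (84.5 CPM), Nr1d1 (71.3 CPM) and Lox (8.98 CPM). It was mouse 2 of 15 h for Spn (4.79 CPM), mouse 1 of 15 h for Rora (75.9 CPM) and mouse 2 of 16 h for Rbm3 (92.1 CPM). In Per2 the odd library was the farthest from dawn and in Nr1d1 the nearest to it; both genes were called without it.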

How the results depend on the processing

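For dawn against early night (209 calls, 108 higher and 101 lower), no filter gave 416 (212 and 204), DESeq2 651 (349 and 302), limma-voom 286 (183 and 103), 22 libraries of all times 563 (276 and 287), 24 libraries 103 (64 and 39), 9 libraries with mouse 3 of 15 h 0, the rod level covariate 4 (0 and 4), separate means for 15 h and 16 h 368 (196 and 172), and leaving out 1 library 54 to 289 (24 to 205 and 30 to 105). Mouse numbers did not pair the libraries (same-number correlations from -0.18 to 0.13), and a replicate block gave 80 (38 and 42), with 114 at 0 h against 16 h, 55 at 0 h against 15 h and 0 at 16 h against 15 h. For 0 h against 16 h (256), no filter gave 893, DESeq2 548, 22 libraries 401, 24 libraries 21, 9 libraries 2 and leaving out 1 library 74 to 289. For 0 h against 15 h (177), these gave 932 without filter, 526 by DESeq2, 74 with 24 libraries, 0 with 9 and 13 to 462 without 1 library. For 16 h against 15 h (1), they gave 524 without filter, 192 by DESeq2, 0 by limma-voom, 0 with 22, 24 or 9 libraries and 0 to 41 without 1 library. DESeq2 size factors (199) and gene length offsets (198) left the first count within 1.5 times. Signs changed for Dbp (-0.0296 by limma-voom, -0.0034 with 22 libraries, -0.0831 with 24, -0.0762 with 9, -0.0378 with the block, and -0.229 to 0.229 without 1 library), and, with 24 and 9 libraries, for Bhlhe40 (0.0526 and 0.0528), Csnk1e (0.00596 and 0.0195), Fbxl21 (0.189 and 0.107; -0.332 to 0.038 without 1 library), Rom1 (-0.0238 and -0.0577) and Mertk (0.114 and 0.103). They changed with the rod covariate for Rorb (-0.00744), and on leaving out 1 library for Ciart (-0.0909 to 0.505) and Nfil3 (-0.362 to 0.0197). Of these genes Rom1 was called. The cause was not tested.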
